A study of Mus musculus with 6 samples.

Results

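The GIMAP genes encode GTPases of immunity-associated proteins, a family of small membrane-associated GTPases found mainly in lymphocytes. Members were the rows of the deposited count and FPKM tables named Gimap1, Gimap3, Gimap4, Gimap5, Gimap6, Gimap7, Gimap8 or Gimap9. All 8 were present among 21362 gene rows, and all 8 were among the 11516 that averaged 1 CPM or more (CPM is the count relative to the scaled library total). No other row had a name beginning with Gimap. RNA sequencing of mouse CD4+ T cells gave 6 libraries in a series about sorafenib, an oral multikinase inhibitor, and regulatory T cells. Every library carries the same cell type label and a running number, and its treatment, strain, age and sex are not given in the labels used here. The 6 are therefore called library 1 to library 6 and each is described on its own, with no group, mean over replicates or test between groups. Values listed in a series run from library 1 to library 6.

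GIMAP proteins share a GTP-binding domain of the AIG1 type, first known from plant defence genes, and several are anchored to intracellular membranes such as those of lysosomes, the endoplasmic reticulum and the Golgi. Loss of Gimap5 in rats and mice causes a shortage of T cells, and loss of Gimap1 removes mature T and B cells, so the family is known for the survival of lymphocytes outside the thymus and bone marrow. Resting T cells are known to carry high levels of these transcripts.

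Total counts over genes ranged from 32435799 to 36316162 per library, and all 95% intervals cover counting error only, since PCR-amplified reads with no molecular identifier need not stand for separate molecules. The labelled cell type was visible in the transcripts. All 14 genes of a T cell identity list reached 1 CPM, with a summed level of 4043 to 4698 CPM, and Cd28, the main co-stimulatory receptor gene, led that list. Of the 2 co-receptor genes of killer T cells, Cd8b1 stood between 8.15 and 9.57 CPM and Cd8a reached at most 0.661 CPM. The summed level of 8 B cell markers was 5.25 to 9.20 CPM, that of 9 myeloid markers 1.79 to 2.64 CPM and that of 6 NK cell markers 1.26 to 1.91 CPM. Platelet markers summed to 9.27 to 11.9 CPM, nearly all of it from Itga2b, and erythroid markers to 0.708 to 1.21 CPM. Markers of endothelial cells summed to 29.3 to 44.3 CPM, nearly all of it from Pecam1, a gene T cells also express, while Cdh5 and Kdr, which define endothelium, stayed at or below 0.158 and 0.231 CPM. The part of any other cell type in the GIMAP values was not tested.

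The GIMAP genes were abundant and differed among themselves in level per gene length. Gimap3, a close paralog of Gimap5 that is needed with it for T cells to persist, was highest, with a median of 291 FPKM (the deposited unit, which divides counts by gene length and library total) and values from 274 to 308 FPKM. Gimap4, a gene linked to the timing of T cell death, followed with a median of 222 FPKM and a range of 208 to 246 FPKM. Gimap6, whose protein binds the autophagy protein GABARAPL2, had a median of 180.1 FPKM and a range of 159 to 208 FPKM. In 1 of the 6 libraries, library 1, Gimap4 and Gimap6 lay within 1 FPKM of each other, at 207.9 and 208.2 FPKM.

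The next levels were lower. Gimap1, the gene required for mature lymphocytes, had a median of 105 FPKM and values from 103 to 108 FPKM. Gimap7, whose protein is a GTPase activated by pairing with other GIMAP proteins, had a median of 87.8 FPKM and values from 79.4 to 97.4 FPKM, all below those of Gimap1. Gimap9 stood at a median of 63.7 FPKM and between 59.6 and 69.2 FPKM. Gimap5 stood at a median of 54.3 FPKM and between 53.0 and 55.8 FPKM, so its values did not overlap those of Gimap9. Gimap8, the longest member, with several GTPase domains, was the lowest with a median of 40.8 FPKM and values from 35.96 to 43.4 FPKM. In that order of medians, Gimap4 and Gimap6 were the only neighbours whose values overlapped over the 6 libraries. Gimap3 ranked 184th of all genes by mean FPKM and Gimap8 ranked 1376th.

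**Figure D1:**
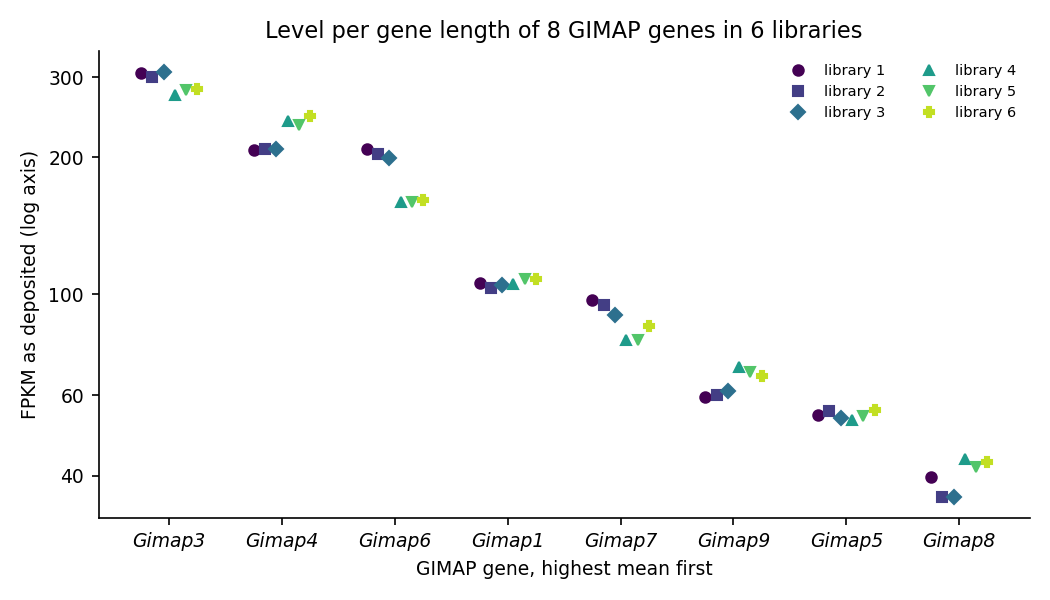
Deposited FPKM (vertical log axis) of the 8 GIMAP genes, 1 symbol per library and gene, genes ordered by mean. Gimap3 lies between 274 and 308 FPKM and Gimap8 between 35.96 and 43.4 FPKM, and Gimap4 and Gimap6 are close in libraries 1 to 3 and apart in libraries 4 to 6.

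As a family the transcripts took nearly the same share of each library. The 8 genes together held 65333, 71337, 71471, 70101, 64454 and 67888 counts. That is 0.201%, 0.198%, 0.198%, 0.193%, 0.193% and 0.197% of all gene counts. The 95% interval ran from 0.1999% to 0.203% in library 1 and from 0.192% to 0.194% in library 4, so the highest and lowest libraries differed beyond counting error, by 1.04-fold. After TMM scaling, which corrects totals for library composition, the summed level was 2103, 2062, 2050, 1848, 1853 and 1909 CPM, a range of 1.14-fold. In bulk RNA, fewer cells that express a gene and less of its RNA per cell cannot be told apart.

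The ranges of single members lay on both sides of those of other genes. Range here means the highest library divided by the lowest, computed on log2 CPM after adding a prior count of 2. The interval given with a range makes no allowance for those libraries being picked as the extremes. Of the 8 members, 0 ranged 2-fold or more, where 10.5% of the 11516 genes did. At 1.5-fold or more the count was also 0 of 8, against 27.6% of those genes. The median range of the members was 1.13-fold and that of all genes 1.29-fold. Genes with low counts range further by counting error alone, so the 2022 genes that averaged 100 CPM or more, a level every member exceeded, are the closer background. Among these, 1.78% passed 2-fold, 8.61% passed 1.5-fold and the median was 1.18-fold. A count of 0 of 8 is near either share, and Gimap6, Gimap7 and Gimap3 ranged further than 87.9%, 80.7% and 60.7% of such genes while Gimap9 ranged further than 5.69%.

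**Figure D2:**
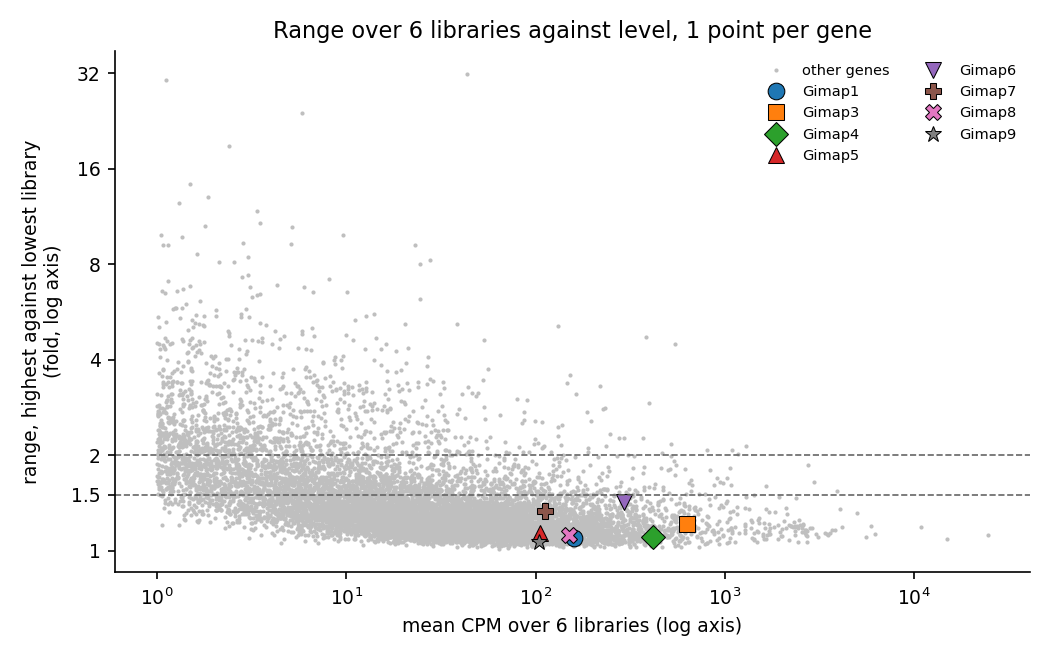
Range over the 6 libraries (fold, vertical log axis) against mean CPM (horizontal log axis) for 11516 genes, with the 8 GIMAP genes as large symbols and dashed lines at 1.5-fold and 2-fold. All members lie under 1.5-fold, with Gimap6 highest at 1.43-fold and Gimap9 lowest at 1.07-fold.

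Gimap6 had the largest range of the family. It stood at 350.3, 342, 332, 246, 246 and 251 CPM. Libraries 1, 2 and 3 were high and libraries 4, 5 and 6 low, with no value between 251 and 332 CPM. Library 1 exceeded library 5 by 1.43-fold (95% interval 1.39 to 1.47). With plain total counts in place of TMM the values were 336, 328, 321, 257, 257 and 259 CPM and the range was 1.31-fold, with the same libraries high.

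Gimap7 was high and low in the same libraries, at a smaller size. It stood at 129, 125, 118, 96.4, 96.6 and 105 CPM. Its range was 1.34-fold (95% interval 1.28 to 1.40) from library 4 to library 1, and 1.23-fold with plain total counts. Libraries 1 to 3 were again above libraries 4 to 6 under either scaling. Gimap3 stood at 685, 670.3, 683, 562, 578 and 585 CPM. Its range was 1.22-fold (1.20 to 1.24), and it too was higher in libraries 1, 2 and 3 with TMM, DESeq2 size factors and plain totals, with a range of 1.12-fold under the last.

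Gimap4 was highest in other libraries. It stood at 406, 407, 403, 429.9, 421 and 446 CPM. Libraries 4, 5 and 6 were above libraries 1, 2 and 3 in each of the 3 scalings, and the range of 1.11-fold (95% interval 1.08 to 1.13) became 1.19-fold with plain total counts. Gimap9 shared that order, with 101, 102, 103, 108, 105 and 104 CPM and a range of 1.07-fold (1.02 to 1.12), or 1.16-fold with plain total counts. After TMM scaling the range of Gimap4 was 1.07-fold without library 6 and that of Gimap9 1.04-fold without library 4. Only 2 of the 15 pairs of libraries had Gimap9 values whose 95% interval excluded equality after TMM scaling, with no correction for comparing 15 pairs. The order of libraries for Gimap9 after TMM scaling may therefore lie within counting error. Gimap8 stood at 156, 141, 139, 156, 150.1 and 155 CPM, with libraries 2 and 3 low and library 1 level with library 4. With plain total counts library 1 lay below libraries 4, 5 and 6, at 149 against 163, 157 and 161 CPM.

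Gimap1 and Gimap5 were highest in libraries 1, 2 and 3 with TMM and with DESeq2 size factors, but not with plain total counts. Gimap1 stood at 166, 162, 163, 152, 156 and 158 CPM, with libraries 1 to 3 above the others, and at 159, 156, 158, 158, 162 and 163 CPM with plain total counts, where libraries 5 and 6 were highest. Gimap5 stood at 110.4, 113, 108, 98.6, 101 and 105 CPM, again with libraries 1 to 3 above, and at 106, 108, 104, 103, 105 and 108 CPM with plain totals, where library 6 was highest. Their ranges were 1.09-fold and 1.14-fold after TMM scaling and both 1.05-fold with plain totals. Plain totals moved the median of all genes by up to 0.12 log2 units between libraries relative to TMM, against ranges of 0.13 log2 units for Gimap1 and 0.19 for Gimap5.

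**Figure D3:**
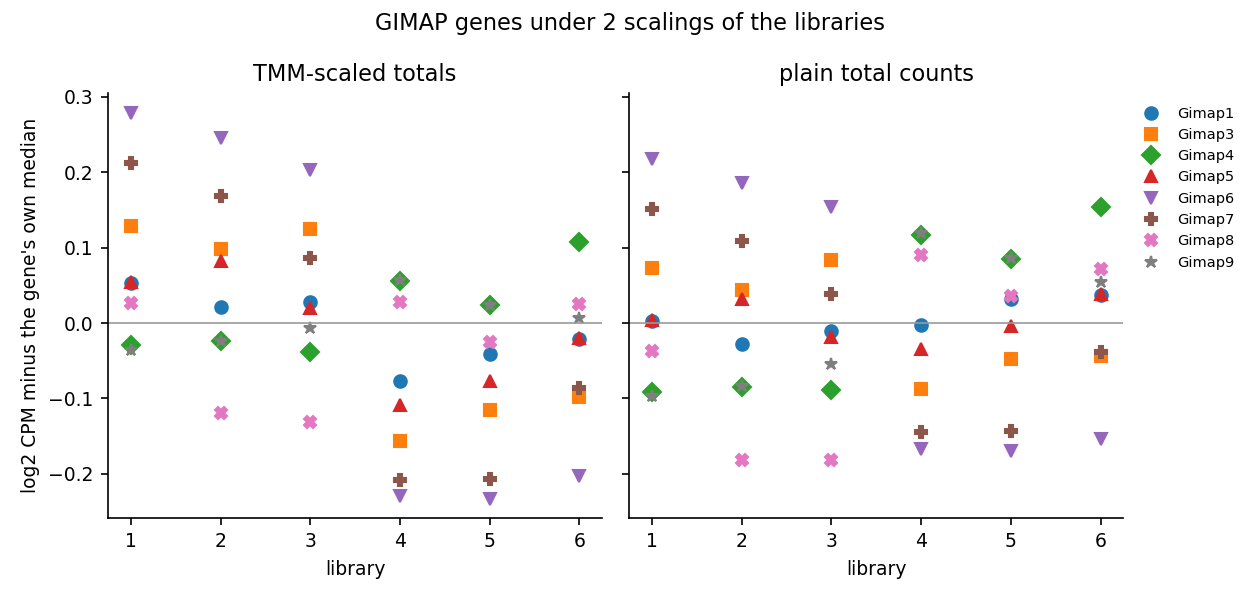
Deviation of each GIMAP gene from its own median (log2 CPM, vertical axis) in the 6 libraries, after TMM scaling (left) and with plain total counts (right), 1 symbol per gene. Gimap6, Gimap7 and Gimap3 are high in libraries 1 to 3 in both panels, and Gimap4 is high in libraries 4 to 6 in both. Gimap9 is also higher in libraries 4 to 6 in both. On the left it differs little, with library 3 at -0.0065 and library 6 at 0.0065 log2 units. Gimap1 and Gimap5 change order between panels.

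The ratio of 2 genes within a library does not depend on how libraries are scaled. The ratio of Gimap4 to Gimap6 was 0.998, 1.03, 1.05, 1.505, 1.48 and 1.53 in FPKM. It was near 1 in libraries 1, 2 and 3 and near 1.5 in libraries 4, 5 and 6. The 95% interval was 1.02 to 1.07 in library 3, the highest of the first 3, and 1.44 to 1.52 in library 5, the lowest of the others. From library 1 to library 6 the ratio ranged 1.53-fold, and 1.49-fold to 1.53-fold when any 1 library was left out. Over the 28 pairs of members, 3 ratios ranged more than 1.5-fold, and all 3 set Gimap6 against Gimap8, Gimap4 or Gimap9. Gimap6 was also the member of largest range by itself. The share of ratios of other gene pairs that range so far was not counted, so these ratios are not shown to be particular to the family.

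In the mouse annotation the 8 genes form 1 cluster on chromosome 6, in the order Gimap8, Gimap9, Gimap4, Gimap6, Gimap7, Gimap1, Gimap5 and Gimap3, with Gimap6 and Gimap3 on the minus strand. Ratios of neighbours in that order ranged from 1.07-fold to 1.53-fold. Gimap8 to Gimap9 ranged 1.14-fold and Gimap9 to Gimap4 1.10-fold. Gimap4 to Gimap6 ranged 1.53-fold. On the other side of it, Gimap6 to Gimap7 ranged 1.17-fold. Gimap7 to Gimap1 had the next largest range, 1.25-fold, and Gimap1 to Gimap5 1.07-fold and Gimap5 to Gimap3 1.14-fold. The ratio of Gimap1 to Gimap7 stood at 1.09, 1.09, 1.16, 1.33, 1.36 and 1.27, higher in libraries 4, 5 and 6. The ratio of Gimap4 to Gimap9 stood at 3.49, 3.47, 3.396, 3.47, 3.47 and 3.72, and library 6 alone was high. The ratio of Gimap6 to Gimap7 stood at 2.14, 2.15, 2.21, 2.01, 2.004 and 1.88, lower in libraries 4, 5 and 6 by less than the ratio of Gimap4 to Gimap6 differed.

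**Figure D4:**
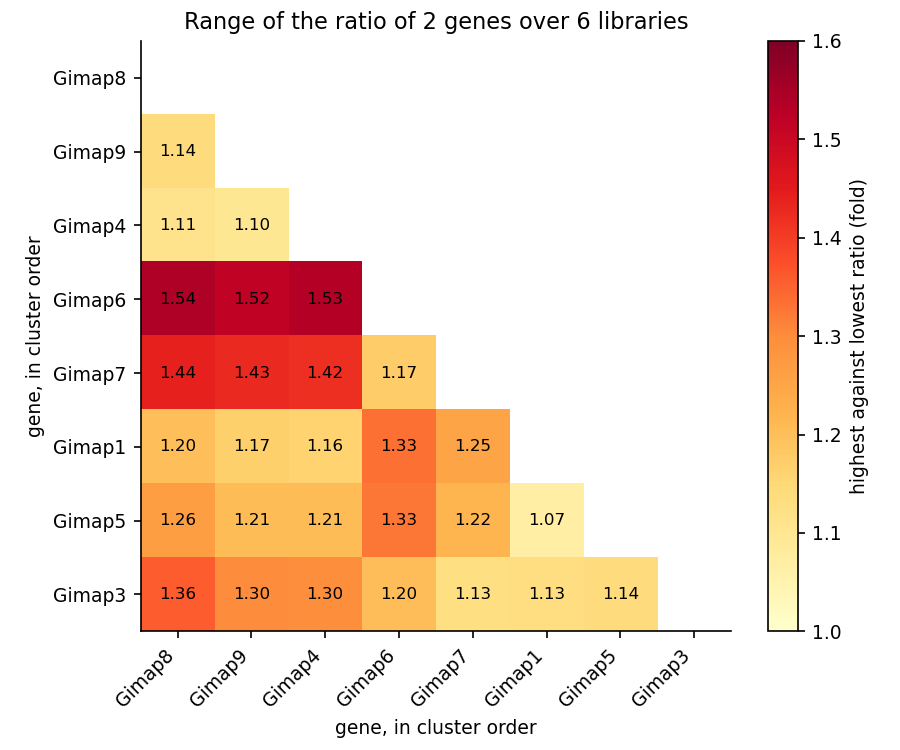
Range over the 6 libraries (fold, colour and number) of the ratio of each of 28 pairs of GIMAP genes, with genes in cluster order on both axes. The darkest cells, from 1.42-fold to 1.54-fold, set Gimap6 or Gimap7 against Gimap8, Gimap9 or Gimap4, and the 3 ratios among Gimap8, Gimap9 and Gimap4 range 1.10-fold to 1.14-fold.

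**Figure D5:**
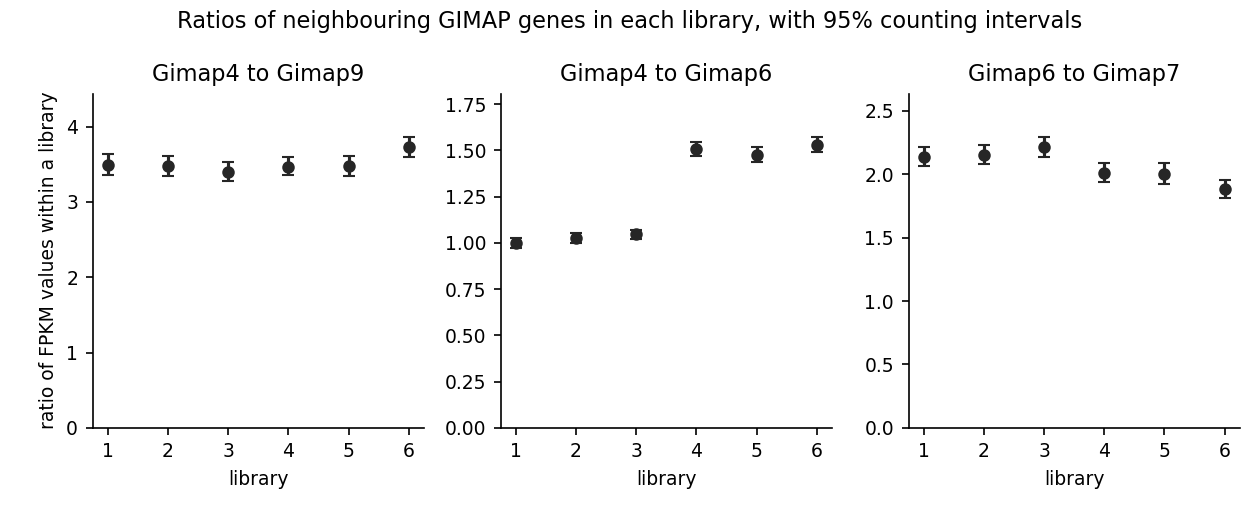
Ratio of FPKM values (vertical axis, from 0) of 3 neighbouring pairs in each library, with 95% counting intervals as bars. Gimap4 to Gimap6 is near 1 in libraries 1 to 3 and near 1.5 in libraries 4 to 6, while Gimap4 to Gimap9 lies between 3.396 and 3.72 and Gimap6 to Gimap7 between 1.88 and 2.21.

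Among neighbours in the cluster, the ratio of Gimap4 to Gimap6 had the largest range, so the 250 bases before their start sites are shown. These bases come from RefSeq on GRCm38.p6, a build other than the one the reads were processed with. They were read at chr6:48684328-48684577 on the plus strand for Gimap4 and at chr6:48708245-48708494 on the minus strand for Gimap6. Capitals mark matches, on either strand, to 10 short motifs named here after the factors known to read them.
Gimap4: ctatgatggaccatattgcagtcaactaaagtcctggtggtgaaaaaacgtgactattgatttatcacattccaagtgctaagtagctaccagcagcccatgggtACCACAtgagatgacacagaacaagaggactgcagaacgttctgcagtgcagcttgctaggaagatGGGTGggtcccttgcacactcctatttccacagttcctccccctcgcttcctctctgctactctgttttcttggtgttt
Gimap6: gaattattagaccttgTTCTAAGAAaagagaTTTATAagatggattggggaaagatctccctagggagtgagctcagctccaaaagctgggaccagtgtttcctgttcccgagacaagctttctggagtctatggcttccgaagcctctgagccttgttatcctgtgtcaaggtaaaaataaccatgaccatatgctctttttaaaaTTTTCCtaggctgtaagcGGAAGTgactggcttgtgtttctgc
The Gimap4 stretch held a RUNX match (TGTGGT, read on the other strand) starting at -145 and a KLF match (CACCC, also on the other strand) at -79 from the start site. The Gimap6 stretch held a STAT match (TTCNNNGAA) at -234, a TATA box match (TATAAA, on the other strand) at -219, an NFAT match (GGAAAA, on the other strand) at -43 and an ETS match (GGAAGT) at -25.

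These motifs are short and common. Of 32851 promoter stretches of the same length, 14.0% held the RUNX letters, 52.0% the KLF letters, 7.02% the STAT letters, 12.4% the TATA box letters, 20.4% the NFAT letters and 19.7% the ETS letters. RefSeq promoters were found for all 8 members, and Gimap8 had 2 start sites, of which either could match. The RUNX letters were in 3 of the 8 (Gimap1, Gimap4 and Gimap7), the ETS letters in 2 (Gimap5 and Gimap6), the STAT letters in 2 (Gimap6 and Gimap8), the NFAT letters in 3 (Gimap1, Gimap3 and Gimap6) and the KLF letters in 5 (Gimap3, Gimap4, Gimap5, Gimap8 and Gimap9). Of the other motifs searched, the FOXO letters (GTAAACA) were in 1 member, Gimap3, and in 3.17% of all promoters. The E protein letters (CACCTG) were in 1 member, the GC box letters (GGGCGG) in 2 and the AP-1 letters (TGANTCA) in 0, against 17.2%, 32.7% and 6.75% of all promoters. A match is a description of letters and not of binding.

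Reads of some members may be shared with related transcripts. Of the 50-base stretches in annotated Gimap3 transcripts, 7.52% also occurred in Gimap5, and 4.53% of those of Gimap5 occurred in Gimap3. A joined gene model, Gm28053, overlaps Gimap7, Gimap1 and Gimap5 on the same strand, and the antisense gene Gimap1os overlaps Gimap1. Neither has a row in the count table. The strand setting of the counting is not given in the sources used here, so reads from Gimap1 and Gimap1os cannot be told apart. Gimap4, Gimap8 and Gimap9 shared 0 such stretches with any other gene and Gimap6 shared 0.057%, so the ratio of Gimap4 to Gimap6 rests on genes with almost no shared sequence.

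Foxo1, Atg14, Dusp1, Llgl2 and Tmem131 had the patterns over the 6 libraries that lay closest to Gimap6. Closeness was the root mean square difference of log2 CPM from each gene's own median. The search covered 8200 genes that averaged 10 CPM or more, with unnamed gene models, antigen receptor segments and members left out. Foxo1, a transcription factor of T cell quiescence, was closest, at 0.017 log2 units, with a 1.45-fold range between 222 CPM (library 1) and 153 CPM (library 5). Atg14, an autophagy gene, followed at 0.023 log2 units, with 25.7 to 36.7 CPM. Within the family, Gimap7 was closest to Gimap6, at 0.080 log2 units, and Gimap8 and Gimap4 were farthest, both at 0.28. Closest to Gimap3 were Ube2z, H2-D1, Tbc1d20, Tut1 and Rpl36a, at 0.011 to 0.016 log2 units. Foxo1 stayed closest to Gimap6 with DESeq2 size factors and with plain totals. The list for Gimap3 kept 4 of its 5 genes under each of these scalings and lost Rpl36a. With plain totals Tbc1d20 was closest to Gimap3 in place of Ube2z. Likeness was not tested.

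Genes of T cell quiescence and of survival by interleukin 7, a list of 15, held members high in libraries 1 to 3 and members high in libraries 4 to 6. At 2-fold or more there were 0 of 15, and at 1.5-fold or more 5 of 15 (Il7r, Klf2, Tcf7, S1pr1 and Bach2), where all genes gave 10.5% and 27.6%, shares that these counts lie near or below. Most of the list averaged 100 CPM or more, a level at which 1.78% and 8.61% of genes passed. Il7r, Tcf7 and Bach2 averaged above that level, and Klf2 and S1pr1 below it. The median range of the list was 1.45-fold, against 1.29-fold for all genes and 1.18-fold for those at 100 CPM or more. Il7r, the receptor gene for interleukin 7, stood at 343, 339, 341, 219, 214 and 214 CPM, high in the libraries where Gimap6 was high. Satb1, a chromatin organiser gene, stood at 1575, 1477, 1495, 1078, 1067 and 1083 CPM, and Btg1, an antiproliferative gene, at 1061, 1021, 1031, 733, 729.6 and 717 CPM. Tcf7, a transcription factor gene of naive and memory T cells, ran the other way with 102, 101, 103, 179.5, 179.7 and 172 CPM. Klf2, a quiescence factor gene, also ran the other way with 11.9, 14.4, 13.4, 21.8, 22.0 and 19.7 CPM.

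Some proteins of the BCL2 family, which controls cell death at mitochondria, have been reported to interact with GIMAP proteins. Of 14 genes of that family that averaged 1 CPM or more, 1 passed 2-fold and 5 passed 1.5-fold, near the 10.5% and 27.6% of all genes. The gene that passed 2-fold averaged 1.25 CPM, where counting error is large. Bcl2, the survival gene, stood at 588, 552, 552, 560.4, 577 and 592 CPM, a range of 1.07-fold, and Mcl1, another survival gene, ranged 1.23-fold. Bcl2l11, which encodes the death-promoting protein BIM, stood at 256, 271, 269.5, 176, 159 and 163 CPM, high in libraries 1 to 3. Its range was 1.70-fold, where 8.61% of genes averaging 100 CPM or more passed 1.5-fold. Pmaip1, which encodes the death-promoting protein NOXA, ranged 1.64-fold from library 2 to library 4.

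Genes of autophagy conjugation, GSK3 and the lysosome, routes linked to Gimap5 and Gimap6, gave 0 of 13 at 2-fold or more and 2 of 13 at 1.5-fold or more, against 10.5% and 27.6% of all genes. Among genes averaging 100 CPM or more the shares were 1.78% and 8.61%. Gabarapl2, the gene of the partner of Gimap6, stood at 30.4, 31.3, 33.9, 27.8, 28.0 and 28.5 CPM, a range of 1.22-fold. Gabarapl1, a related autophagy gene, stood at 97.4, 88.9, 91.8, 55.8, 56.1 and 57.4 CPM. It was high in libraries 1 to 3, as Gimap6 was. Gsk3b, a kinase gene linked to Gimap5 function, ranged 1.11-fold, from 231 to 257 CPM, and Ctsd, a lysosomal protease gene, 1.08-fold.

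Genes beside the cluster were far lower. Of 10 names listed as neighbours, 5 reached 1 CPM, and the annotation places these 5 on the same chromosome within 200 kilobases of the cluster. Repin1 ranged from 17.4 to 20.9 CPM and Lrrc61 from 15.5 to 18.5 CPM, 1.20-fold and 1.19-fold. Zfp775 ranged from 5.96 to 8.66 CPM. Tmem176b, at 0.838 to 2.31 CPM, and Tmem176a, at 0.574 to 1.38 CPM, both ranged 2-fold or more at counts where counting error is large.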

How the data were processed

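Transcriptome libraries of mouse CD4+ T cells, 6 in all, were built with a VAHTS Universal V5 kit according to the labels' protocols. The authors deposited raw read counts per gene, and FPKM values per gene that equal the count over length and total within a relative 1.63e-06. The assembly GRCm39 and the tools HISAT2, HTSeq, fastp, DESeq2 and R 3.2.0 are named, without settings, in the submitters' processing notes. Treatments are absent from the labels, so libraries were not grouped and nothing was tested between them. Totals were scaled by TMM in edgeR 4.0.16 (R 4.3.3), with factors from 0.958 to 1.04. Ranges used log2 CPM with a prior count of 2 over genes averaging 1 CPM or more. Intervals are exact 95% Clopper-Pearson intervals for counting error, and a floor of 3 counts stood for 0.0791 to 0.0966 CPM. Python 3.11.15, numpy 2.4.6, pandas 2.3.3, scipy 1.17.1 and matplotlib 3.10.9 were used. The range procedure was tested on simulated counts.

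The 8 members and the gene lists were chosen with earlier results of these data known. All members were named. Of each pathway list the 2 most abundant genes and the 2 of largest range among genes at 10 CPM or more were eligible, with Il7r, Klf2, Bcl2, Gabarapl2 and Gsk3b whatever their values, and of each marker list the most abundant. The genes closest to Gimap3, the most abundant member, and to Gimap6, the member of largest range, were taken as the first 5. The result for 1 gene of the quiescence list is not reported here, and the list was counted without it. Other genes named (S1pr1, Bach2, Cd8a, Cdh5, Kdr, Zfp775, Tmem176a, Tmem176b and the overlapping gene models) were chosen after their values were seen, as were the background at 100 CPM and the ratios of members. Gene order, overlap and shared 50-base stretches came from GENCODE M21 and promoters from RefSeq, both on GRCm38. Alternatives were DESeq2 1.42.0 size factors, plain totals, deposited FPKM with a pseudocount of 0.1, a prior count of 0.5, a mean of at least 5 CPM or no filter, and each library left out.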

Additional observations from a re-analysis of the deposited data

How the results depend on the processing

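No member reached 1.5-fold or 2-fold under any alternative run, with 0 of 8 at each. Leaving a library out can only keep or lower a range, for members and for all genes. The filters on level leave the ranges of members unchanged. Those runs could therefore not raise the count of members. The median range of the members on the log2 scale was 0.18, and 0.19 with DESeq2 size factors, 0.23 with plain totals or FPKM and 0.16 to 0.18 with 1 library left out. The range of the summed level, 0.19, was 0.21 with DESeq2 size factors, 0.061 with plain totals, 0.076 with deposited FPKM values and 0.16 to 0.19 with 1 library left out. The median range of all genes, 0.37, was 0.39 with plain totals, 0.38 with FPKM, 0.32 at a mean of at least 5 CPM, 0.59 without a filter, 0.24 at 100 CPM and 0.33 to 0.35 with 1 library left out. Genes at 2-fold or more numbered 1204, or 450 at 5 CPM, 6870 without a filter, 36 at 100 CPM and 1041 to 1098 with 1 library left out. Genes at 1.5-fold or more numbered 3174, or 1664, 11757, 174 and 2764 to 2963 in the same order. Fewer genes are tested under a stricter filter. The ranges of all 8 members moved beyond their counting intervals with plain totals and with FPKM, which share a scaling, and of 0 with DESeq2 size factors or a prior count of 0.5. With 1 library left out, Gimap4 moved from 0.15 to 0.094 log2 units without library 6 and Gimap3 from 0.28 to 0.24 without library 4, and Gimap9, within its interval, from 0.093 to 0.060 without library 4. The order of libraries held in every scaling for Gimap3, Gimap4, Gimap6, Gimap7 and Gimap9 as to which 3 were highest, and did not for Gimap1, Gimap5 and Gimap8. No paired analysis was possible because the labels place no library in a group.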

Other observations

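Of the septins, cytoskeletal GTPases related in fold, 0 of 7 measured genes ranged 1.5-fold or more, where 27.6% of all genes did and 8.61% of those averaging 100 CPM or more. Septin9, the most abundant, stood at 562, 559, 549.5, 463, 474 and 484 CPM, high in libraries 1 to 3 as Gimap3 was, and Septin11 stood at 91.4, 95.7, 92.9, 115, 119 and 125 CPM, high in libraries 4 to 6. Of 16 measured interferon-inducible GTPases, which defend cells against intracellular pathogens, 1 passed 2-fold and 3 passed 1.5-fold, near or below the 10.5% and 27.6% of all genes. Among genes averaging 100 CPM or more the shares were 1.78% and 8.61%. The median range was 1.23-fold for the septins and 1.24-fold for the interferon-inducible GTPases. Iigp1 stood at 13.1, 10.6, 13.2, 21.2, 20.6 and 22.5 CPM and Gbp10 at 24.2, 23.7, 24.0, 44.5, 47.1 and 37.6 CPM. Igtp, the most abundant of that list, ranged 1.05-fold.

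The ordered values of a gene over the 6 libraries can be described by their widest gap on the log2 scale. After TMM scaling, Gimap1, Gimap3, Gimap6 and Gimap7 had that gap between libraries 1 to 3 above and libraries 4 to 6 below. It was 0.042 log2 units for Gimap1 and held 79.2% of the range for Gimap6. Under that scaling it put libraries 4, 5 and 6 above the others for 0 members. Of all 11516 genes, 18.7% had the gap below libraries 1, 2 and 3 and 16.1% below libraries 4, 5 and 6 after TMM scaling. With plain total counts, Gimap4 stood at 388 to 390 CPM in libraries 1 to 3 and 439 to 460 CPM in libraries 4 to 6. Gimap9 stood at 96.7 to 99.6 CPM and 107 to 112 CPM. For both, the widest gap then put libraries 4, 5 and 6 above the others. The share of all genes with that gap was not counted with plain total counts. Relative to TMM, plain totals lowered the median gene in libraries 1 to 3 and raised it in libraries 4 to 6. The gap of Gimap4 and Gimap9 with plain totals therefore has no background to be set against, and the shares after TMM scaling do not serve as one. The labels do not say whether these sets of libraries differ in treatment.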
